A study of Homo sapiens with 6 samples.

Results

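Collagens, laminins, integrins and the FREM proteins build the matrix that cells rest on and the receptors that hold it. In the deposited table of HEK293 RNA sequencing counts, 85 gene symbols matched the naming patterns of these families, out of 63140 genes listed. The 66 with at least 10 counts in 3 or more libraries were taken as members, namely 33 collagen, 11 laminin, 20 integrin and 2 FREM genes.

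HEK293 is an established human line derived from embryonic kidney. All libraries came from confluent cultures of this line, grown with fetal bovine serum, and the labels name no engineered allele. In 3 of them the cells had received 100 nM GSK-A1 for 24 h, a compound that blocks phosphatidylinositol 4-kinase alpha (PI4KA), and in the other 3 they had received the solvent, dimethyl sulfoxide (DMSO). The labels call the replicates biological without saying how the cultures were kept apart. The p-values therefore set the difference between groups against the spread of these 6 libraries within their groups, and speak for no other cultures. Total counts ran from 33040178 to 47777233, and an error below is an SD over 3 libraries or, for a fold change, a standard error (SE).

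Collagen chains assemble in threes into rod-like molecules, which form banded fibrils, sheet-like networks or membrane-anchored proteins according to type. Laminins are cross-shaped trimers of 1 alpha, 1 beta and 1 gamma chain, and with type IV collagen they form the basement membrane under epithelia and around the kidney glomerulus and tubules. Integrins are pairs of an alpha and a beta subunit that span the plasma membrane, bind matrix outside and link to actin inside.

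Of the 64 members that could be tested, 10 rose and 14 fell at an adjusted p under 0.05 (edgeR quasi-likelihood test, Benjamini-Hochberg over all 16754 genes tested). That is 37.5% of the tested members, against 22.9% of all tested genes, of which 12.0% were called higher and 10.9% lower. Collagens accounted for 11 of the 14 falls, with 2 rises among 31 tested. Laminins gave 3 rises and 1 fall among 11, and integrins 5 rises and 1 fall among 20. FREM1 fell and FREM2 was not called. With upper-quartile factors the rises and falls were 1 and 12 for collagens, 2 and 3 for laminins and 2 and 2 for integrins.

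The median log2 fold change was -0.17 over tested collagens, -0.01 over laminins and 0.07 over integrins, beside -0.01 over all tested genes. Over the alternatives, the collagen median ran from -0.21 (upper-quartile factors) to -0.09 (without GSK-A1 replicate 2). The laminin median ran from -0.05 to 0.04 in the same 2 settings. The integrin median turned to -0.003 and -0.006 without DMSO replicate 1 or 2 and reached 0.09 with a filter at 1 CPM. In 33 of the 64 members all GSK-A1 libraries lay on one side of all DMSO libraries, which held for 40.5% of all tested genes. LAMB3 and COL12A1 upward and FREM1 and COL17A1 downward passed a log2 fold change of 1 in size. ITGAX did too, but it met the count rule only through the GSK-A1 libraries, and its call was lost without GSK-A1 replicate 1 (edgeR adjusted p = 0.222). Scaling by upper quartiles instead of trimmed means turned the split from 10 higher and 14 lower into 5 and 19, and the split over all genes from 2007 and 1828 into 1339 and 2688. GSK-A1 replicate 2 stood apart from its group, with correlations of 0.994 and 0.995 to GSK-A1 replicates 3 and 1 against 0.997 between those. Without it the member calls were 12 higher and 16 lower, and those over all genes 2610 and 2271. Without DMSO replicate 1, 2 or 3 the member calls were 4 and 12, 4 and 12, and 5 and 13. Over all genes they were 1136 and 1027, 1218 and 999, and 1170 and 1045 in those fits.

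**Figure D1:**
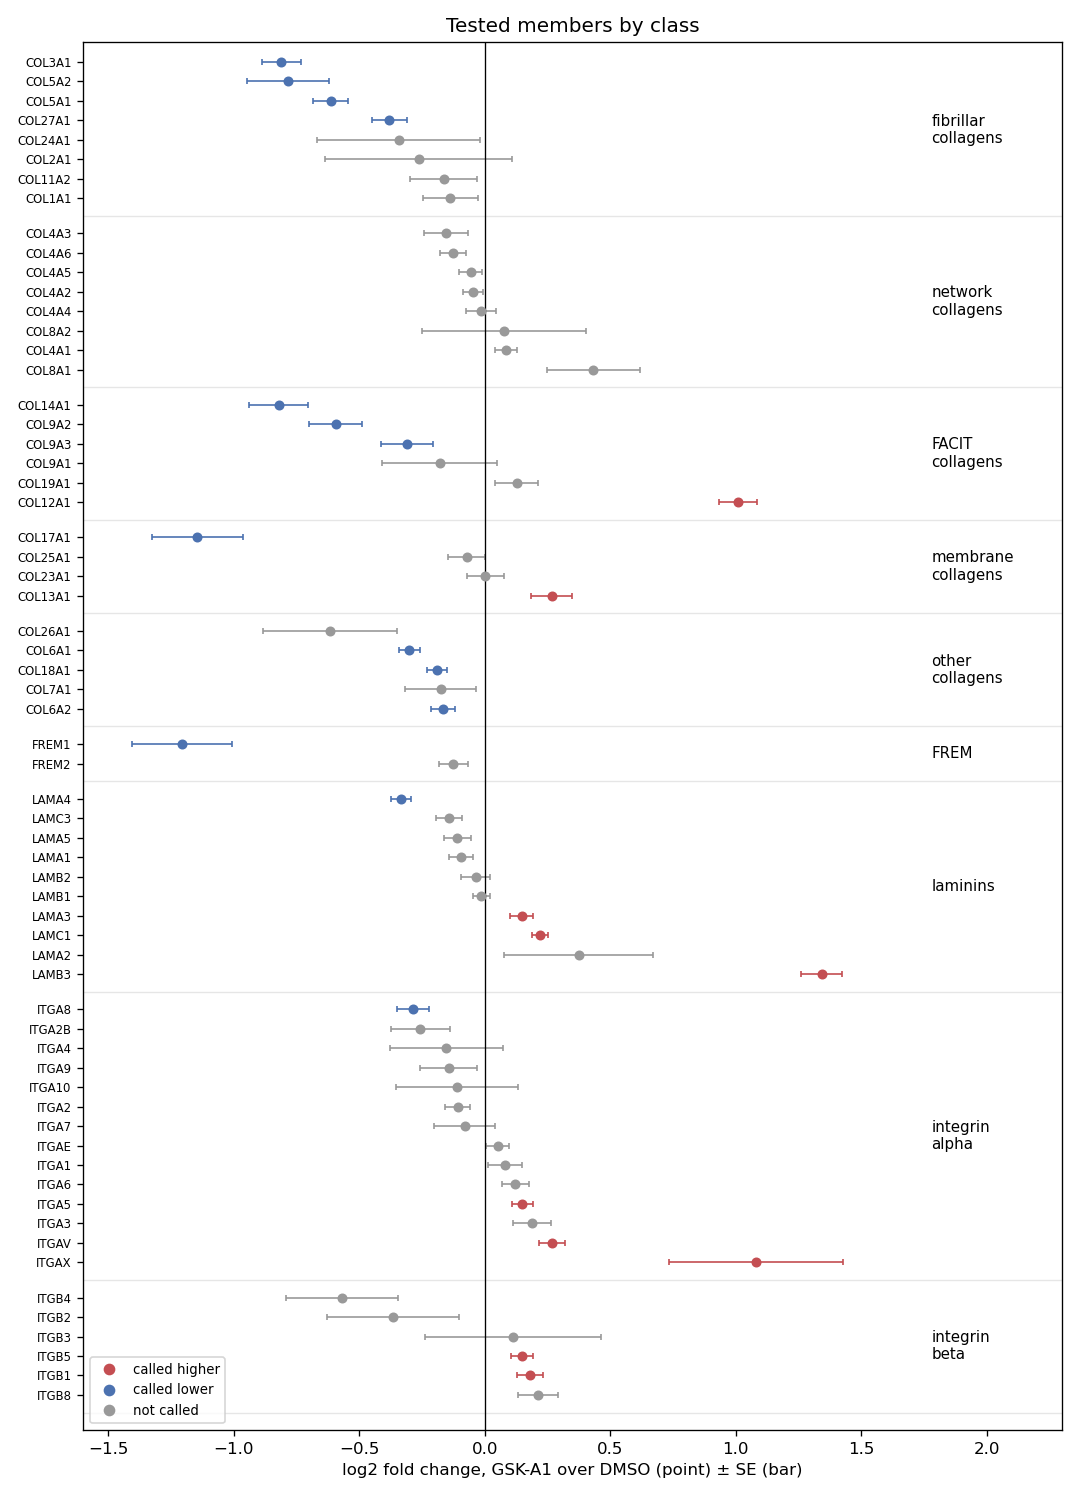
Log2 fold change of GSK-A1 over DMSO (x axis) for the tested members reported here, grouped by class, with bars of 1 SE and colour for the call at an adjusted p under 0.05. All 8 fibrillar collagens lie left of 0 and LAMB3, at 1.34, lies farthest right.

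The label of the line was checked on marker genes. Vimentin (VIM) and the neurofilament gene NEFL, both known to be strong in HEK293, stood at 1085 ± 33.1 and 715 ± 2.37 CPM with DMSO, while NEFM and WT1 were near 0 (0.14 and 0.01 CPM). Of the 8 markers of the line that were tested, VIM (0.17 ± 0.04) and KRT8 (0.11 ± 0.04) rose, PAX2 (-0.43 ± 0.12) and GATA3 (-0.26 ± 0.09) fell, and 4 were not called. CPM, the unit of level used throughout, is a count relative to the scaled library total. Of 10 fibroblast markers 7 were under 1 CPM in both groups and MFAP5 had 0 counts in all libraries. The summed level of that list was 75.1 to 81.2 CPM with DMSO and 69.2 to 71.1 with GSK-A1, mostly from FBLN1. Blood cell markers summed to 2.88 to 3.34 and 3.16 to 4.14 CPM and endothelial markers to 1.39 to 1.92 and 1.29 to 1.83. Epithelial markers summed to 5.14 to 5.30 and 5.54 to 5.83, but 2 of the 5 tested went opposite ways. CLDN4 rose from 0.861 ± 0.0651 to 1.65 ± 0.169 CPM (0.96 ± 0.17, edgeR adjusted p = 8.46e-04) and CDH1 fell from 0.821 ± 0.113 to 0.508 ± 0.0648 CPM (-0.71 ± 0.23, edgeR adjusted p = 0.0317), and their part in the values of LAMB3 and COL17A1 was not tested. In these bulk cultures fewer cells of a kind and less RNA per cell cannot be told apart.

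Levels can be compared between genes only per length, here as CPM per kilobase of exon. The length joined the exons of all annotated transcripts of a gene, so it can exceed that of a single transcript. On that scale LAMC1 led with 38.5 in DMSO, followed by ITGB1 at 36.6, COL6A1 at 24.0, LAMB1 at 23.1 and LAMB2 at 18.1. The order depends on these lengths, which were 19293 bases for COL4A2, 14738 for COL4A1 and 5343 for COL6A1. By CPM alone, COL4A2 (173.5) and COL4A1 (131.8) stood above COL6A1 (128.1) in DMSO. Among integrin alpha subunits ITGAV (7.70), ITGA6 (7.56) and ITGA5 (7.12) were close together. Fibrillar collagens were lower, led by COL5A1 at 1.59. COL1A1, the main chain of bone and skin collagen, was read at 0.694 CPM per kilobase, but its partner chain COL1A2 had 0 counts in every library. Also at 0 throughout were COL11A1, COL6A5, COL6A6 and ITGB6. Summed over the collagen members, the level per kilobase was 93.8 to 100.7 with DMSO and 86.3 to 88.8 with GSK-A1.

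**Figure D2:**
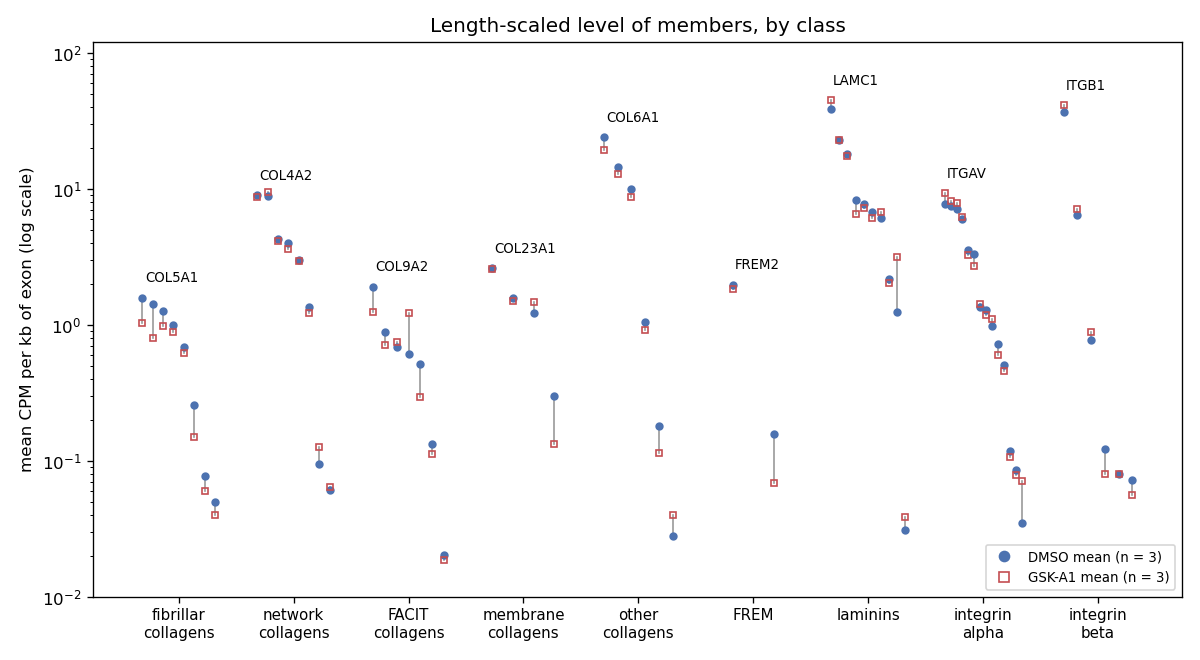
Mean CPM per kilobase of exon (log axis) of each member reported here in DMSO (filled circles) and GSK-A1 (open squares), by class, each mean over 3 libraries, with the most abundant member of a class named. LAMC1, ITGB1 and COL6A1 sit highest, and most grey lines joining the 2 means are short.

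The count threshold fell among very low genes. Just inside it were COL20A1 with 12, 11 and 6 counts in DMSO replicates 1 to 3 and 14, 4 and 7 in the GSK-A1 libraries, COL28A1 with 9, 10 and 5 and 13, 8 and 10, and COL8A2 with 16, 14 and 7 and 17, 9 and 10. Just outside were ITGAL at up to 14 counts, COL15A1 and COL16A1 at up to 13, COL5A3 at up to 12 and COL6A3 at up to 11. COL20A1 and COL28A1 were below the count filter of the fit and have no test. In what follows the values of a group are given in the order of replicates 1, 2 and 3.

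Fibrillar collagens, the rope-forming kind, were all lower in estimate. Of 8 tested, 4 fell and none rose, and the class had a median log2 fold change of -0.36. COL3A1, the chain of type III collagen found in pliable tissues, was read at 9.38, 9.78 and 9.90 CPM with DMSO and 5.73, 5.18 and 5.58 CPM with GSK-A1. Every treated library lay below every control. Its log2 fold change was -0.81 ± 0.08 (edgeR adjusted p = 3.55e-06), a fall of 43.0%.

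Type V collagen nucleates and thins such fibrils, and COL5A1 and COL5A2 fell while COL5A3 was below the count rule. COL5A1 went from 16.7, 19.0 and 17.5 CPM to 12.1, 11.6 and 11.01 CPM (log2 fold change -0.61 ± 0.07, edgeR adjusted p = 1.40e-05). COL5A2, at a much lower CPM, went from 2.13, 2.02 and 1.599 CPM to 1.20, 1.08 and 1.08 CPM (-0.78 ± 0.16, edgeR adjusted p = 0.00268). Neither pair of groups overlapped. COL27A1, a fibrillar chain of cartilage, gave 18.6, 17.8 and 17.02 CPM and then 14.5, 12.2 and 14.2 CPM (-0.38 ± 0.07, edgeR adjusted p = 0.00120). These 4 calls were made under all 18 alternatives.

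The other fibrillar chains were not called. COL1A1 stood at 6.74, 6.46 and 7.24 CPM with DMSO and 6.74, 4.86 and 6.74 CPM with GSK-A1, so that only GSK-A1 replicate 2 was clearly lower (-0.14 ± 0.11, edgeR adjusted p = 0.396). COL11A2 gave -0.16 ± 0.13, and COL24A1 and COL2A1, both under 1 CPM, -0.34 ± 0.32 and -0.26 ± 0.37. Of the fibroblast markers, PDGFRA went from 2.71 ± 0.377 to 1.96 ± 0.2998 CPM (-0.45 ± 0.15, edgeR adjusted p = 0.0333) and FBLN1 from 63.1 ± 2.81 to 53.3 ± 0.814 CPM (-0.24 ± 0.04, edgeR adjusted p = 0.00114), while TWIST1 rose by 0.23 ± 0.07 (edgeR adjusted p = 0.0226). The part of these markers in the collagen values was not tested.

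FACIT collagens sit on the surface of fibrils and have interrupted triple helices. Here the class split, with 1 rise and 3 falls among 6 tested. COL12A1, a FACIT of tendon and of tissue under load, was at 7.09, 7.89 and 7.91 CPM in the control libraries and at 14.9, 16.6 and 14.5 CPM in the treated ones. The groups did not overlap (log2 fold change 1.01 ± 0.08, edgeR adjusted p = 1.81e-07). COL14A1, a close relative of COL12A1, moved the other way, from 4.28, 5.06 and 4.13 CPM to 2.49, 2.46 and 2.72 CPM (-0.82 ± 0.12, edgeR adjusted p = 1.32e-04).

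Type IX collagen, which decorates cartilage fibrils, is a trimer of 3 different chains, and its 3 genes were all members. COL9A2 fell from 7.32, 8.64 and 8.24 CPM to 5.73, 4.31 and 5.83 CPM (-0.59 ± 0.11, edgeR adjusted p = 0.00103). COL9A3 went from 4.11, 4.48 and 4.29 CPM to 3.78, 3.31 and 3.22 CPM (-0.31 ± 0.11, edgeR adjusted p = 0.0430). That call was lost without DMSO replicate 1, 2 or 3 (adjusted p 0.0720, 0.149 and 0.101), without GSK-A1 replicate 2 or 3 (0.0624 and 0.124), without a count filter (0.0587), with the replicate number as a block (0.0542), with limma-voom (0.0519), with DESeq2 (0.123) and with the trend on GC content removed (0.105). COL9A1, near 1 CPM, differed by -0.18 ± 0.23 and was not called. COL19A1 gave 0.13 ± 0.09 (edgeR adjusted p = 0.316).

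The upstream sequence of COL12A1 is shown because it had the largest rise among collagens. It is the stretch of 250 bases before the RefSeq start (GRCh38.p14, chr6:75206054-75206303, minus strand), 5′ to 3′. Capitals mark a match to CATTCC or its reverse complement, the MCAT box that TEAD factors are known to bind.
COL12A1: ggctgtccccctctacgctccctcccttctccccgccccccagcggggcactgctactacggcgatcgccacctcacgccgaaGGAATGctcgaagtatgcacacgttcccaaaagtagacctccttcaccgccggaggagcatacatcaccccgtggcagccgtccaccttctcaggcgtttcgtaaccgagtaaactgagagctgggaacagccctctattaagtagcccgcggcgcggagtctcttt
Such a match stood in 11.9% of the 35116 human windows of this length and in 6 of the 64 windows (9.38%) of the 47 members found in the table. It describes letters and says nothing of binding.

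Of the 4 membrane-spanning collagens, 1 fell and 1 rose. COL17A1, which anchors epithelial cells in hemidesmosomes, was read at 2.06, 2.33 and 1.99 CPM with DMSO and 1.22, 0.908 and 0.694 CPM with GSK-A1, or 99, 106 and 66 and 57, 31 and 25 counts. Its log2 fold change was -1.15 ± 0.18 (edgeR adjusted p = 3.69e-04), the largest fall among collagens. COL13A1, found at cell junctions and at the nerve-muscle synapse, went up from 6.59, 7.28 and 7.94 CPM to 8.50, 8.85 and 8.74 CPM (0.27 ± 0.08, edgeR adjusted p = 0.0274). The COL13A1 call was lost under upper-quartile factors (0.0575), with DESeq2 (0.0568) and without DMSO replicate 1 or 2 or GSK-A1 replicate 1 (0.148, 0.0829 and 0.0617). COL25A1 and COL23A1 differed by -0.07 ± 0.07 and 0.0018 ± 0.07.

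The most abundant collagens were microfibril and basement membrane chains. Among them COL6A1, COL6A2 and COL18A1 fell by small amounts, while the type IV chains were not called. Type VI collagen forms beaded microfibrils around cells from 3 chains. COL6A1 fell from 122, 132 and 130.1 CPM to 104, 99.7 and 108 CPM (-0.30 ± 0.04, edgeR adjusted p = 1.39e-04), a change of 18.8% downward. COL6A2 went from 78.2, 83.6 and 73.6 CPM to 68.2, 68.6 and 73.1 CPM (-0.17 ± 0.05, edgeR adjusted p = 0.0212), where the lowest control, 73.6 CPM, lay just above the highest treated library. The third chain, COL6A3, had no more than 11 counts in any library. The COL6A2 call was lost without DMSO replicate 1 or 2 or GSK-A1 replicate 1 (0.0774, 0.154 and 0.0937) and with the GC trend removed (-0.09, 0.124).

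COL18A1, a basement membrane collagen whose end fragment is endostatin, fell from 82.8, 87.5 and 85.9 CPM to 73.7, 75.7 and 75.2 CPM (-0.19 ± 0.04, edgeR adjusted p = 0.00300). Exons of SLC19A1 on the opposite strand cover 16.4% of its exonic length, and the strand setting of the counts is not given in the sources used here. COL7A1, the anchoring fibril chain, was at 11.9, 11.5 and 11.3 CPM and 11.3, 7.47 and 11.8 CPM and was not called (-0.18 ± 0.14). Its GSK-A1 replicate 2 was the only low library. COL26A1, at 0.5005, 0.506 and 0.694 CPM and 0.343, 0.381 and 0.361 CPM, gave -0.62 ± 0.27 (edgeR adjusted p = 0.106).

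None of the 8 network collagens tested was called. Type IV collagen forms the sheet of basement membranes from 6 genes that lie in 3 pairs, each pair head to head. COL4A1 was at 126, 135 and 135 CPM with DMSO and 136, 148 and 136 CPM with GSK-A1 (0.08 ± 0.04, edgeR adjusted p = 0.181). COL4A2 was at 167, 183 and 170.2 CPM and 167, 171 and 166 CPM (-0.05 ± 0.04, edgeR adjusted p = 0.419). Their differences had opposite signs, although that of COL4A2 turned to 0.02 with the GC trend removed.

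The pair that makes the glomerular network with COL4A5 was not called either. COL4A3 gave 10.99, 12.8 and 13.5 CPM and 10.8, 10.1 and 12.4 CPM (-0.16 ± 0.09, edgeR adjusted p = 0.217). COL4A4 gave 27.9, 30.8 and 31.8 CPM and 28.3, 29.6 and 31.5 CPM (-0.02 ± 0.06), with a sign that turned without DMSO replicate 2 or 3 or GSK-A1 replicate 1. On the X chromosome COL4A5 was at 49.2, 51.8 and 52.2 CPM and 47.8, 51.1 and 48.6 CPM (-0.06 ± 0.05) and COL4A6 at 35.6, 39.4 and 36.03 CPM and 35.4, 33.4 and 32.9 CPM (-0.13 ± 0.05, edgeR adjusted p = 0.0945). COL4A6 was called lower under upper-quartile factors alone (0.0303). COL8A1 and COL8A2, near or below 1 CPM, differed by 0.43 ± 0.19 and 0.08 ± 0.33.

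The balance within neighbouring collagen pairs was read as a ratio of CPM in each library, for 5 pairs chosen after the values had been seen. COL4A1 over COL4A2 was 0.752, 0.737 and 0.791 with DMSO and 0.810, 0.866 and 0.818 with GSK-A1. These groups did not overlap, at an exact two-sided permutation p of 0.1, the smallest that 3 against 3 libraries can give. The RefSeq starts of that pair, in the table used for promoters, lie 126 bases apart on chromosome 13. COL4A3 over COL4A4 moved the other way, from 0.412 ± 0.016 to 0.373 ± 0.027 (SD, n = 3; exact permutation p = 0.1). COL6A1 over COL6A2 went from 1.64 ± 0.11 to 1.49 ± 0.04 (exact permutation p = 0.1). COL4A5 over COL4A6 (1.382 ± 0.068 and 1.45 ± 0.09, exact permutation p = 0.4) and COL3A1 over COL5A2 (5.15 ± 0.93 and 4.90 ± 0.22, exact permutation p = 0.8) overlapped. Adjusted over the 5 pairs, no p was below 0.167.

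**Figure D3:**
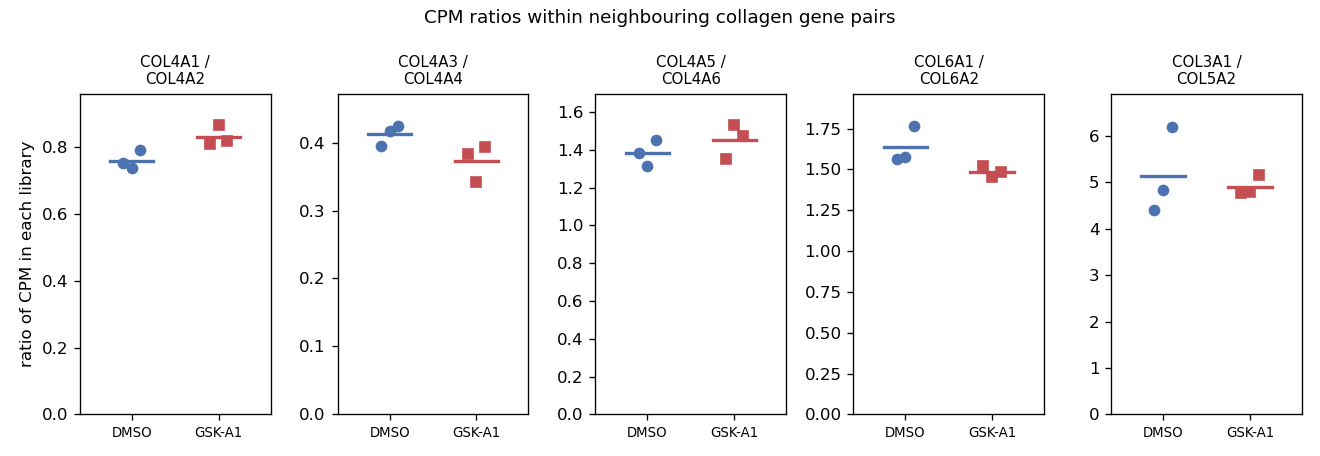
Ratio of CPM between the genes of 5 neighbouring collagen pairs (y axes start at 0), with a point for each library and a line for the group mean. The groups separate in COL4A1 over COL4A2, COL4A3 over COL4A4 and COL6A1 over COL6A2.

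FREM proteins belong to the Fraser complex, which ties epithelium to the basement membrane in the embryo and matters for kidney development. FREM1 was at 1.36, 1.91 and 1.84 CPM with DMSO and 0.644, 0.732 and 0.832 CPM with GSK-A1, or 65, 87 and 61 and 30, 25 and 30 counts. The groups were far apart and the log2 fold change was -1.21 ± 0.20 (edgeR adjusted p = 4.69e-04). FREM2, far more abundant, gave 32.5, 32.4 and 31.5 CPM and 27.5, 32.0 and 29.3 CPM (-0.12 ± 0.06, edgeR adjusted p = 0.121), and GSK-A1 replicate 2 overlapped the controls. Without that library FREM2 was called lower (-0.18, 0.00203), as it was under upper-quartile factors (0.0363) and with the GC trend removed (0.0240). Their complex partner FRAS1 differed by -0.10 ± 0.05 (edgeR adjusted p = 0.128). FREM3 had at most 1 count.

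Among laminins, LAMB3, LAMA3 and the common gamma chain LAMC1 rose while LAMA4 fell. LAMB3 and LAMA3 are chains of a laminin that epithelia use for firm attachment. LAMB3 had the largest rise of any member, from 6.17, 5.496 and 5.97 CPM to 15.7, 13.4 and 15.4 CPM (log2 fold change 1.34 ± 0.08, edgeR adjusted p = 1.15e-08), a rise of 154%. LAMA3 rose less, from 86.4, 90.0 and 91.3 CPM to 98.9, 93.0 and 104 CPM (0.15 ± 0.04, edgeR adjusted p = 0.0268).

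The LAMA3 call was lost in every fit that left out 1 library other than GSK-A1 replicate 2, with adjusted p from 0.0641 to 0.141, and under upper-quartile factors (0.107). LAMB3 was called under all 18 alternatives. Per kilobase, LAMB3 made up 2.95% ± 0.17 (SD, n = 3) of the summed laminin beta level in controls and 7.25% ± 0.28 in treated libraries.

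Windows of 250 bases upstream of RefSeq starts (GRCh38.p14) were searched for the AP-1 site TGANTCA on both strands, which is known from epithelial laminin promoters. It was found in 6.57% of all 35116 windows and in 3 of the 64 member windows (4.69%), those of LAMB3, LAMA3 and FREM1, of which the first 2 rose and FREM1 fell. Capitals mark the site. The LAMB3 stretch runs from 250 to 21 bases before the most downstream of its 3 listed starts (chr1:209651395-209651624, minus strand).
LAMB3: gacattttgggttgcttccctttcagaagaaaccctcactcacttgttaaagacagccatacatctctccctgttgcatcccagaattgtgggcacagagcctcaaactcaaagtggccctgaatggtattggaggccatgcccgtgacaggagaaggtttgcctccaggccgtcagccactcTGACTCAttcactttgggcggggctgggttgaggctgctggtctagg
The sites of LAMA3 (chr18:23872885-23872911 and chr18:23872941-23872967, plus strand) and FREM1 (chr9:14780604-14780630, minus strand) are given with 10 bases on each side. The FREM1 site lies before the most downstream of its listed starts. The windows of its other starts (chr9:14910429-14910678 and chr9:14910996-14911245) held no match.
LAMA3 from -125: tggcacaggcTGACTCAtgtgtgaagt
LAMA3 from -69: cttcctcaccTGAGTCAggcaggcccg
FREM1 from -189: aaatattttgTGAATCAtaaatttctc
The search also covered the EGR site GCGNGGGCG, in 9.38% of member windows and 8.41% of all, and the TATA box TATAAA, in 10.9% and 10.7%. The CRE (TGACGTCA) and the CArG box, in 1.65% and 1.16% of all windows, were in no member window.

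LAMC1, the gamma chain of most laminins, was the most abundant member per length and rose from 319, 325 and 327 CPM to 371, 386 and 375 CPM (0.22 ± 0.03, edgeR adjusted p = 2.36e-04). Treated and control libraries were well separated, and the rise was 16.5%. LAMC3 went from 49.6, 54.7 and 50.9 CPM to 49.7, 44.9 and 45.8 CPM and missed the threshold (-0.14 ± 0.05, edgeR adjusted p = 0.0561). It was called lower with upper-quartile factors (0.0179), library totals only (0.0448), a filter at 1 CPM (0.0453) and in the absence of GSK-A1 replicate 1 or 2 (0.0331 and 0.0468). LAMA4, the alpha chain of mesenchymal and vascular laminins, fell from 91.9, 98.3 and 96.2 CPM to 75.0, 77.2 and 75.1 CPM (-0.33 ± 0.04, edgeR adjusted p = 3.53e-05). The LAMA4 share of the summed laminin alpha level per kilobase was 33.95% ± 0.39 with DMSO and 29.1% ± 1.6 with GSK-A1, and that of LAMA3 25.02% ± 0.24 and 29.8% ± 0.5 (SD, n = 3).

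The other laminins moved little. LAMB1, the beta chain of the embryonic trimers, was at 185, 190.4 and 190.0 CPM with DMSO and 188, 185 and 187 CPM with GSK-A1 (-0.01 ± 0.03, edgeR adjusted p = 0.818) and stood at 0.01 after removal of the GC trend. LAMB2, of the mature glomerular membrane, gave -0.04 ± 0.06, LAMA5 -0.11 ± 0.05 and LAMA1 -0.09 ± 0.05. LAMA2, the muscle alpha chain, lay near the floor at 0.37 ± 0.30. None of these was called, although LAMA5 was lower without GSK-A1 replicate 3 (0.0312) and LAMA1 with upper-quartile factors (0.0489).

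**Figure D4:**
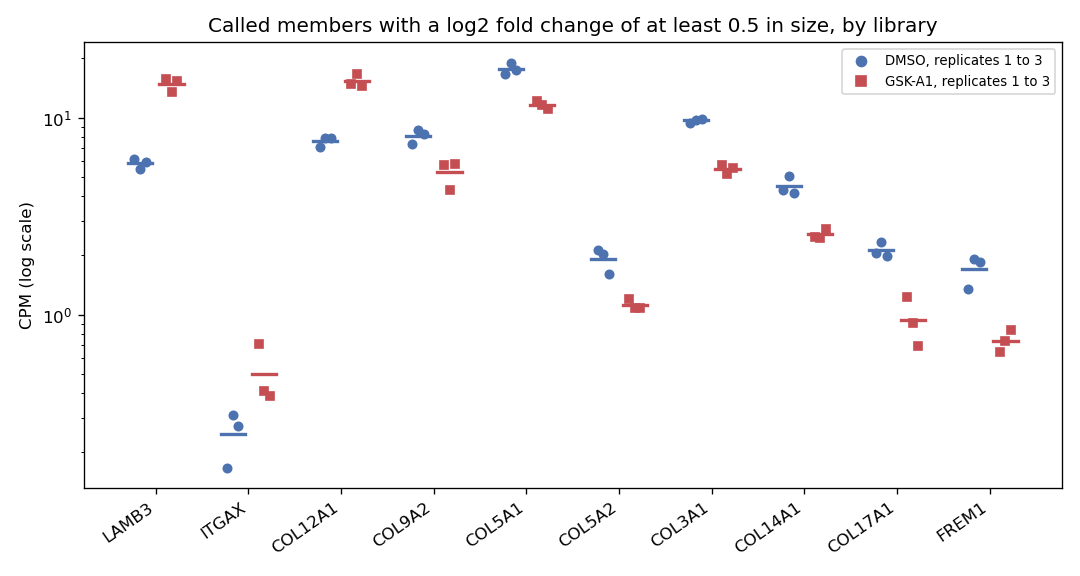
CPM (log axis) in each library for the 10 called members with a log2 fold change of at least 0.5 in size, with a line for each group mean. In each of these 10 genes the 3 GSK-A1 libraries lie on one side of the 3 DMSO libraries. The choice by call and size favours such separation, which held for 40.5% of all tested genes. ITGAX met the count rule only through the GSK-A1 libraries.

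A log2 fold change of at least 0.5 in size went with a call in 10 members, which are plotted by library, and in 3.24% of all tested genes. Of these 10, LAMB3, COL12A1 and ITGAX rose and the other 7 fell. ITGAX met the count rule only through the GSK-A1 libraries, so its place among these rises is not independent of that rule. The same holds for its place among the 10 rises of members and the 5 rises of integrins.

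Of the 4 integrin alpha subunits that bind the RGD motif of fibronectin and vitronectin, 2 rose and 1 fell. ITGAV, the alpha subunit of the vitronectin receptors, rose from 65.2, 62.8 and 61.7 CPM to 71.0, 82.9 and 74.8 CPM (0.27 ± 0.05, edgeR adjusted p = 0.00181), and its call was made under all 18 alternatives. ITGA5, the alpha subunit of the fibronectin receptor, rose from 53.4, 54.5 and 53.9 CPM to 60.4, 57.5 and 61.7 CPM (0.15 ± 0.04, edgeR adjusted p = 0.0190). ITGA8, which guides kidney development through nephronectin, fell from 24.5, 24.4 and 26.2 CPM to 20.3, 22.4 and 18.9 CPM (-0.29 ± 0.06, edgeR adjusted p = 0.00415). ITGA2B, the platelet subunit, was not called (-0.26 ± 0.12).

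Of 6 beta subunits, ITGB1 and ITGB5 rose by small amounts. ITGB1, which pairs with most alpha subunits, went from 217, 223 and 221 CPM to 243, 276 and 230.5 CPM (0.18 ± 0.05, edgeR adjusted p = 0.0269), GSK-A1 replicate 2 being the highest. Sequence shared with AC022149.1 covers 15% of its 50-base words. ITGB5, a partner of ITGAV, went from 41.0, 41.7 and 41.6 CPM to 47.2, 45.0 and 45.3 CPM (0.15 ± 0.04, edgeR adjusted p = 0.0232). ITGB8, another partner of ITGAV, gave 10.8, 12.51 and 11.7 CPM and 12.3, 13.7 and 14.7 CPM and was not called (0.21 ± 0.08, edgeR adjusted p = 0.0622). It was called higher with the replicate block (0.0320), with no count filter (0.0256) and in the absence of GSK-A1 replicate 1 or 2 (0.0336 and 0.0337).

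The calls of ITGA5, ITGB1 and ITGB5 were each lost without DMSO replicate 1, 2 or 3 (adjusted p from 0.0637 to 0.106). They were also lost under upper-quartile factors (ITGA5 0.0774, ITGB1 0.0613, ITGB5 0.0868). Those of ITGA5 (0.0693) and ITGB5 (0.106) were lost when GSK-A1 replicate 1 was left out, and that of ITGA5 (0.0502) in the absence of GSK-A1 replicate 3. The number of integrins called higher, 5 with all libraries, was 1 in each fit that left out a DMSO library. It was 3 when GSK-A1 replicate 1 was dropped and 7 when replicate 2 was. Over all tested genes the number called higher, 2007 with all libraries, was 1136, 1218 and 1170 without DMSO replicate 1, 2 or 3. That number was 1527 and 2610 without GSK-A1 replicate 1 or 2.

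None of the 6 integrin alpha subunits that bind collagen or laminin was called. ITGA2, a collagen receptor, was at 28.4, 27.4 and 28.5 CPM and 25.3, 26.9 and 26.0 CPM (-0.11 ± 0.05, edgeR adjusted p = 0.137). It was called lower after removal of the GC trend (0.0132), under upper-quartile factors (0.0388) and without GSK-A1 replicate 2 (0.0398). ITGA1, whose transcript overlaps PELO, gave 0.08 ± 0.07, and ITGA10 -0.11 ± 0.24. Among laminin receptors ITGA6 gave 47.4, 50.3 and 50.5 CPM and 53.8, 57.6 and 49.9 CPM (0.12 ± 0.05, edgeR adjusted p = 0.102) and was called higher without GSK-A1 replicate 3 (0.0199). ITGA3 gave 0.19 ± 0.08 (edgeR adjusted p = 0.0899; 0.0135 with the GC trend removed, 0.0203 without GSK-A1 replicate 2) and ITGA7 -0.08 ± 0.12. ITGA9, which binds tenascin, and ITGA4 differed by -0.14 ± 0.11 and -0.15 ± 0.23.

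Leukocyte subunits were mostly near 0. ITGAX, of the complement receptor on myeloid cells, had 8, 14 and 9 counts in DMSO libraries and 33, 14 and 14 in GSK-A1 libraries. Its log2 fold change was 1.08 ± 0.35 (edgeR adjusted p = 0.0315), and the call was lost without DMSO replicate 1, 2 or 3 or GSK-A1 replicate 1 (0.162, 0.0553, 0.0699 and 0.222). DESeq2 gave no adjusted p for it. ITGAE, the exception in level, was at 41.0, 40.3 and 38.6 CPM and 42.8, 41.1 and 40.4 CPM (0.05 ± 0.05). Exons of HASPIN on the other strand cover 6.41% of ITGAE. Among beta subunits of any cell type, ITGB2 and ITGB4 lay under 1 CPM. They gave -0.37 ± 0.26 and -0.57 ± 0.22 and were not called (edgeR adjusted p = 0.338 and 0.0767). ITGB3, whose exons overlap those of AC068234.1 on the same strand over 51.6% of their length, is uncertain (0.11 ± 0.35).

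Genes around the members were read from 7 lists drawn up from general knowledge, but with earlier results of these data known. Their shares of called genes stand beside the 22.9% over all tested genes and are not a test of enrichment. Enzymes and chaperones that modify and fold collagen gave 6 rises and 1 fall among 21 tested (33.3% called), with a median log2 fold change of 0.01. The fall was in SERPINH1, the collagen-specific chaperone HSP47, from 33.9 ± 1.75 to 26.1 ± 1.63 CPM (SD, n = 3; -0.38 ± 0.06, edgeR adjusted p = 2.09e-04). The hydroxylase genes P3H2 and P4HA2 rose by 0.45 ± 0.07 and 0.44 ± 0.05, and the isomerase FKBP14 by 0.25 ± 0.05. Processing and crosslinking enzymes gave 1 rise and 2 falls among 12 (25% called, median -0.11), with LOXL1, which crosslinks elastin, at -0.57 ± 0.10, PCOLCE, the enhancer of procollagen cleavage, at -0.33 ± 0.10 and FURIN at 0.15 ± 0.04.

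Other basement membrane components gave 5 falls and no rise among 13 tested (38.5% called), with a median of -0.12. NID2, a linker of laminin and collagen IV, fell from 21.5 ± 0.440 to 15.1 ± 0.412 CPM (SD, n = 3; -0.51 ± 0.06, edgeR adjusted p = 1.38e-05), and AGRN and FBLN1 gave -0.17 ± 0.05 and -0.24 ± 0.04. NID1, the paralog of NID2, was not called (0.06 ± 0.04, edgeR adjusted p = 0.319).

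Other integrin ligands gave 4 rises and 2 falls among 19 (31.6% called, median 0.07). Tenascin C (TNC), a ligand of ITGA9 and ITGAV receptors, rose from 59.4 ± 0.665 to 92.9 ± 3.97 CPM (SD, n = 3; 0.64 ± 0.04, edgeR adjusted p = 3.15e-08), and CCN1 and CCN2 by 0.64 ± 0.06 and 0.48 ± 0.09. Fibronectin (FN1) fell from 75.3 ± 1.782 to 67.6 ± 1.61 CPM (-0.16 ± 0.04, edgeR adjusted p = 0.0118) and CCN3 differed by -0.35 ± 0.11.

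Proteins on the inner side of integrins gave 10 rises and 5 falls among 34 (44.1% called, median 0.03). Zyxin (ZYX), TES and vinculin (VCL), all at adhesion sites, rose by 0.28 ± 0.04, 0.27 ± 0.04 and 0.16 ± 0.03. Falls included the tensins TNS1 (-0.87 ± 0.23) and TNS3 (-0.53 ± 0.10) and the kinase gene PTK2B (-0.52 ± 0.09). Talin (TLN1) was not called (-0.003 ± 0.04).

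Matrix receptors other than integrins gave 5 rises and 6 falls among 16 (68.8% called, median -0.03). The hyaluronan receptor gene CD44 rose from 3.68 ± 0.439 to 6.73 ± 0.0740 CPM (0.86 ± 0.10, edgeR adjusted p = 1.90e-05). The collagen receptor kinases went apart, DDR1 rising by 0.22 ± 0.04 and DDR2 falling from 10.2 ± 1.16 to 5.98 ± 0.525 CPM (-0.77 ± 0.10, edgeR adjusted p = 5.25e-05). The laminin alpha 5 receptor BCAM (-0.40 ± 0.07) and LRP1 (-0.58 ± 0.06) were lower, and SGCE was higher (0.24 ± 0.05).

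Matrix proteases and their inhibitors gave 10 rises and no fall among 26 (38.5% called), with a median of 0.16. MMP10, stromelysin-2, had 7, 1 and 3 counts in DMSO libraries and 48, 53 and 31 in GSK-A1 libraries (edgeR adjusted p = 1.69e-05). It met the count filter only through the GSK-A1 libraries, so its place among the 10 rises is not independent of that filter. TIMP3, an inhibitor held in the matrix, rose from 68.8 ± 1.57 to 97.2 ± 3.58 CPM (0.50 ± 0.04, edgeR adjusted p = 6.31e-07) and ADAMTS1 from 239 ± 1.49 to 297 ± 4.81 CPM (0.32 ± 0.03). MMP2, which cleaves collagen IV, was under 1 CPM in both groups and was not called (-0.12 ± 0.33).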

How the data were processed

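RNA from 6 HEK293 cultures, 3 with DMSO and 3 with GSK-A1, was made into libraries with a stranded Illumina kit, per the labels' protocols. The authors deposited 1 table of raw counts per gene. Per the submitters' processing notes, cutadapt 5.1, STAR 2.7.11b, featureCounts of Subread 2.1.1, DESeq2 1.38.0 and the build GRCh38.p13 were used. The annotation release and the strand setting are not given in the sources used here. Every library carries the same lane label, so no batch could be compared.

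Counts were fitted with edgeR 4.0.16 in R 4.3.3 (default low-count filter, trimmed-mean factors, robust quasi-likelihood test), and 16754 genes were tested. CPM used the same factors. Exon lengths, joined over all transcripts of a gene, were taken from GENCODE and promoter windows from RefSeq (GRCh38.p14). The fit was run on counts simulated from its own estimates of level and spread, a check of the code and not of error rates here. Library totals of 33040178 to 47777233 counts and a common biological coefficient of variation of 4.06% set the precision. Calls were made at adjusted p below 0.05. Alternatives changed the factors, filter, test (DESeq2 1.42.0, limma 3.58.1), threshold, GC trend, replicate block and libraries. Values by library were given for called members past a log2 fold change of 0.5 in size, for up to 3 called members per class and direction, for the most abundant of each class, for the type IV collagen pairs and for some others picked after their values were seen. The members and lists were chosen with earlier results of these data known. For 1 member, which is part of the counts, values are not reported here.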

Additional observations from a re-analysis of the deposited data

How the results depend on the processing

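Of the 24 called members, 14 were called in every one of the 18 alternatives that gave an adjusted p, and all 24 kept their sign. The number of all genes called higher (2007) became 1058 at an adjusted p under 0.01, 562 with glmTreat at 1.1-fold, 1339 with upper-quartile factors and 1136 to 2610 without 1 library. The number called lower (1828) became 813, 538, 2688 and 999 to 2271. Members called higher (10) became 5 with upper-quartile factors, 4 at the stricter threshold, 4 with glmTreat and 4 to 12 without 1 library, and members called lower (14) were 12 to 16 without 1 library. Collagens called higher (2) became 1 with upper-quartile factors, DESeq2, the stricter threshold or glmTreat and 1 to 2 without 1 library, and those lower (11) were 9 to 10. Laminins called higher (3) were 2 to 3 without 1 library, and those lower (1) became 3 with upper-quartile factors, 2 with library totals only, 2 with a filter at 1 CPM and 1 to 2 without 1 library. Integrins called higher (5) became 2 with upper-quartile factors, 1 at the stricter threshold, 1 with glmTreat and 1 to 7 without 1 library. Integrins called lower (1) became 2 with upper-quartile factors or the GC trend removed, 0 with glmTreat and 1 to 2 without 1 library. The cause was not tested, except that a stricter threshold and glmTreat ask more of each gene by construction.

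Sign changes were found in 12 of the 64 tested members, none of them called: LAMB2, ITGA7, COL9A1, COL2A1, COL8A2, ITGA4, ITGA10, ITGB3 and the following 4 of the members named by rule. With the GC trend removed the log2 fold change was 0.0239 for COL4A2, 0.0072 for COL4A4 and 0.0104 for LAMB1. That of COL4A4 ran from -0.071 to 0.0217 when 1 library was left out, being above 0 in the absence of DMSO replicates 2 (0.0018) and 3 or of GSK-A1 replicate 1 (0.022). COL23A1 gave -0.0387 with upper-quartile factors, -0.0064 with library totals and -0.0051 with the 1 CPM filter. It ran from -0.0435 (DMSO replicate 1 left out) to 0.041 and was -0.02 when GSK-A1 replicate 2 was left out. Over the 37 members named by rule and all alternatives, 583 of 664 values kept their sign and call, 62 lost a call and 8 gained one.

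With the replicate number as a block, 11 members were called higher and 13 lower, COL9A3 was lost (edgeR adjusted p = 0.0542) and ITGB8 was gained (0.0320). Deviations of same-numbered libraries correlated at 0.011, 0.019 and 0.032, and those of differently numbered ones at -0.033 to 0.012. GSK-A1 replicate 1 correlated best with DMSO replicate 2 (0.012), while replicates 2 and 3 correlated best with their own numbers. These values do not settle whether cultures were paired. The labels do not state it, so the block was kept as an alternative. Depth limits the genes near the floor, such as ITGAX and COL8A2, where a few counts move the estimate.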
